A study of Homo sapiens with 6 samples.

Results

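The MYC, MAX and MXD network is a family of transcription factors with a basic helix-loop-helix leucine zipper, described here in U251 cells, an established human glioma line. It was taken as the probe sets whose single gene symbol on the array is MYC, MYCN, MYCL, MAX, MXD1, MXD3, MXD4, MXI1, MNT or MLX. This gave 9 of the 10 genes, of 19775 with a symbol of their own on the array, and 31 of the 54613 non-control probe sets. The 3 probe sets of MXD4 also carry the symbol of a microRNA gene and were left out under that rule.

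Expression was read on 6 Affymetrix arrays, 3 of cells with PARK2 overexpression and 3 of control cells with GFP overexpression. PARK2 codes for parkin, a ubiquitin ligase. A virus delivered either construct and puromycin selected the stable cells, so the controls share both steps. The titles name the 3 arrays of each group as biological replicates, without stating what was repeated, such as the culture or the infection, so a p-value here covers the spread between these arrays, whatever its source. The labels describe 1 stable line per construct, so PARK2 and any other difference between the lines cannot be told apart, nor can fewer cells with a transcript and less of it per cell. Group labels were taken as given.

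MYC binds DNA as a dimer with MAX and activates genes for cell growth, ribosome assembly and metabolism. The MXD proteins, MXI1 and MNT compete for MAX and recruit the SIN3 and histone deacetylase co-repressor to the same sites. MLX is a second hub, which pairs with MondoA (MLXIP) or ChREBP (MLXIPL) in the response to glucose, and which can also pair with MXD1, MXD4 and MNT. All of these dimers prefer E-box sequences, of which CACGTG is the best known.

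RefSeq promoter windows (GRCh38.p14) were found for 9 of the 10 genes, with none for MYC. The 250 bases before the annotated start were searched for CACGTG, which reads the same on both strands. MNT, MLX and MXD4 had 1 match each. Of all 35116 windows of this length 6.34% held these letters, a share of windows rather than of genes, and MAX and MXI1 had more than 1 window each. The windows of MNT and MLX are shown as examples that hold a match, which is in capitals.
MNT promoter, chr17:2401061-2401310, minus strand: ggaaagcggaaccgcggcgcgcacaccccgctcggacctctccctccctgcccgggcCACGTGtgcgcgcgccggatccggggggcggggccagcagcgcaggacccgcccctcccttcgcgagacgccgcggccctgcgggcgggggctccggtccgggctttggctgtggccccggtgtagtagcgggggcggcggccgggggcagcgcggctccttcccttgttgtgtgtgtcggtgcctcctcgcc
MLX promoter, chr17:42566850-42567099, plus strand: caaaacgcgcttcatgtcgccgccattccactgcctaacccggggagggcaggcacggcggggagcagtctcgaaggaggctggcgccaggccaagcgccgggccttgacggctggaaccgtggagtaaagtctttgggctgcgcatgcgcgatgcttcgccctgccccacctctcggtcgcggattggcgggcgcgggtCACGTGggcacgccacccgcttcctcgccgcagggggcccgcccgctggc
The match lies 193 bases before the start of MNT and 50 before that of MLX, counted to its first base. No window of MXD1, MXI1, MXD3, MAX, MYCN or MYCL held it, which says only that these letters are not there. The GC content was 78.0% in the MNT window and 71.2% in the MLX window, against a median of 58.0% over all windows.

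The arrays were alike in median intensity, at 16.66 to 18.4 array units for control and 16.23 to 19.25 for PARK2. The trimmed mean, which leaves out the brightest and dimmest probe sets, differed more. It was 168.3 for control replicate 1 and 137.3 for control replicate 3, and 140.8 to 154.9 for PARK2. For actin, the ratio of 3' to 5' control signal, a sign of RNA quality, lay between 3.83 and 5.31 on control and between 3.53 and 5.66 on PARK2 arrays. For GAPDH this ratio lay between 1.04 and 1.17 on control and between 1.02 and 1.06 on PARK2 arrays. Of 6 glioma and astroglial markers all passed the filter on dim probe sets, among them VIM at 8898 ± 444 (SD, n = 3) in control and 8921 ± 523 in PARK2 cells, while S100B fell by 1.39 on the log2 scale and GFAP rose by 0.53. The summed level of 4 leukocyte and microglial markers on the array was 38.9 to 46.5 for control and 30.8 to 51.9 for PARK2. That of the 4 endothelial markers was 110 to 120 and 99.5 to 148, and that of 4 oligodendrocyte markers 100 to 141 and 73.2 to 117. That of the 6 neuronal markers was 538 to 742 and 3348 to 3582, where NEFL (log2 fold change 4.83) and SNAP25 (1.26) rose, MAP2 was at -0.26 and the neuronal markers RBFOX3, SYP and STMN2 were under the floor described next. That of the 4 epithelial markers was 209 to 315 and 130 to 137, mostly KRT18, with EPCAM and CDH1 under the floor. The part of these markers in the results below was not tested.

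Intensities were tested as log2(intensity + 16) with limma over the 26603 probe sets that had 1 gene and a mean of at least 9.87 array units on that scale, called the floor here. Rose and fell are used where the Benjamini-Hochberg adjusted p over all of them was under 0.05. For neighbouring and listed genes they refer to a separate fit with 1 probe set a gene, adjusted over all genes. Of the 31 network probe sets 19 were above the floor. Of these, 3 fell (MYC, MXI1 and 1 of MXD1), 1 rose (MXD3) and 15 did not pass. That is 21.1% called, against 20.4% of all probe sets tested (9.1% higher and 11.3% lower), so the share of calls was close to the background. The groups did not overlap for 8 of the 19, or 42.1%, against 35.1% of all (2 higher and 6 lower, against 16% and 19.1% of all). The median log2 fold change was -0.18 over the 19 and -0.01 over all 26603.

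**Figure D1:**
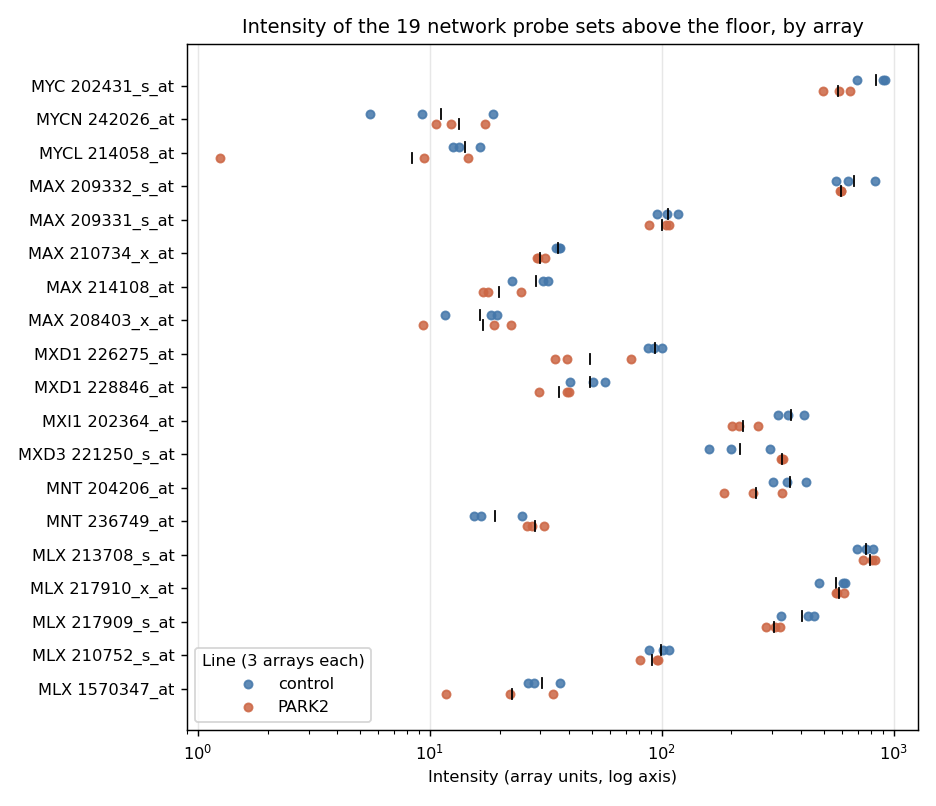
Intensity of the 19 network probe sets above the floor (horizontal log axis, array units), with 1 point per array, control in blue and PARK2 in orange, and a black tick at each group mean. MYC and MXI1 lie lower in all 3 PARK2 arrays than in any control array, MXD3 lies higher in all 3, and the MAX probe set 209332_s_at overlaps between groups.

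MYC, the activator of the network, was lower in PARK2 cells. Its single probe set 202431_s_at read 921, 900 and 699 array units on the control arrays, in replicate order, and 499, 647 and 579 on the PARK2 arrays. All 3 PARK2 arrays lay below all 3 control arrays. The means were 840 ± 123 (SD, n = 3) and 575 ± 74.5, a log2 fold change of -0.53 (SE 0.15, 95% interval -0.85 to -0.21, limma's adjusted p 0.0188). In limma, the call was lost without control replicate 2 (-0.48, adjusted p 0.0998), PARK2 replicate 1 (-0.43, 0.0876) or PARK2 replicate 3 (-0.54, 0.0585), and without limma's intensity trend (0.0565).

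Some genes near MYC on chromosome 8 fell too. Of the 40 tested genes nearest in order, 20 on either side, 17 fell, 1 rose and 22 did not pass, and their median log2 fold change was -0.40. By gene, with 1 probe set each, 15.6% of all 13720 tested genes fell, 13.3% rose and 28.8% were called in all, while 42.5% of these neighbours fell. On the side toward smaller coordinates 13 of 20 fell, with a median of -0.70, and on the other side 4 of 20, with a median of -0.11. Several genes on the other side had a wide SE, such as PVT1 (0.26), PTCSC1 (0.26) and SLA (0.24), against 0.15 for MYC. So did MTSS1 (0.25) and ANXA13 (0.24) on the side toward smaller coordinates. The part of such imprecise genes in the difference between the sides was not tested. The pseudokinase gene TRIB1, 2 places away, fell by 2.34, the cholesterol synthesis gene SQLE fell by 1.18 and the stress-response gene NDRG1 fell by 1.18. PVT1, the noncoding RNA gene next to MYC, was at 0.05 (adjusted p 0.92), where its brightest probe set was used. With the median deviation of the neighbours subtracted on each array, MYC was at -0.08 (adjusted p 0.648). The part of the region in the MYC result was not tested beyond this.

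**Figure D2:**
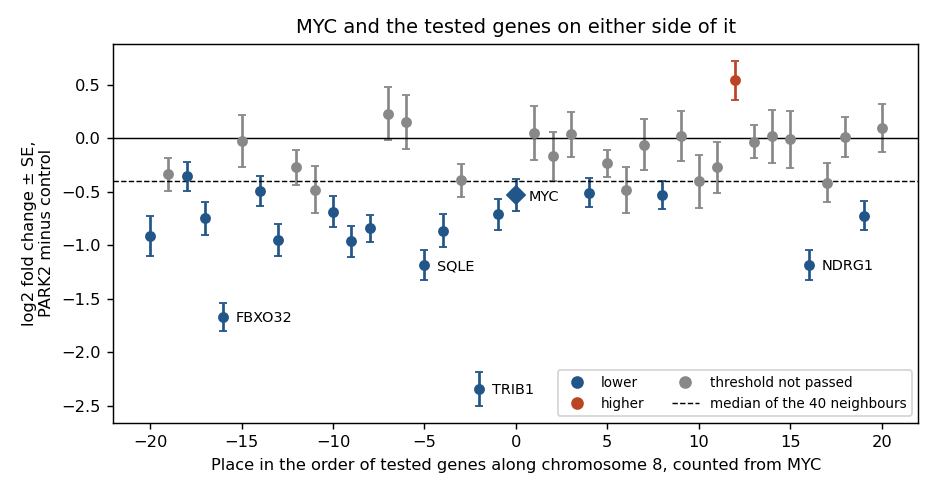
Log2 fold change (PARK2 minus control, bars are SE) of MYC (diamond, -0.53) and of the 20 tested genes on either side of it, by place in the gene order along chromosome 8. Blue points fell and orange rose at adjusted p under 0.05, grey points did not pass, and the dashed line is the neighbours' median of -0.40.

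MYCN and MYCL, the MYC relatives of neural and lung tumours, were dim. Of the 10 MYCN probe sets 9 were under the floor, with array values from 0.43 to 15.7. The remaining one, 242026_at, read 5.51, 18.7 and 9.3 in control and 12.4, 17.2 and 10.6 in PARK2 replicates (log2 fold change 0.14, SE 0.24, adjusted p 0.761). MYCL was read by 214058_at at 16.5, 12.6 and 13.4 in control and 14.6, 1.25 and 9.41 in PARK2 replicates (-0.34, SE 0.24, adjusted p 0.381). The groups overlapped for both genes, and both probe sets lie close to the floor. The second MYCL probe set was under the floor, with values from 2.45 to 13.7.

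MAX, the obligate partner of MYC and the MXD proteins, did not pass on any of its 5 probe sets. The brightest, 209332_s_at, read 830, 638 and 567 in control and 588, 591 and 595 in PARK2 replicates, so the control arrays spread on both sides of the PARK2 arrays. Its log2 fold change was -0.17 (SE 0.15, adjusted p 0.492), with a 95% interval of -0.50 to 0.15. It was -0.02 without control replicate 1 (adjusted p 0.905) and -0.29 without control replicate 3 (0.213). The other 4 were at -0.31 (214108_at), -0.18 (210734_x_at), -0.07 (209331_s_at) and 0.00 (208403_x_at). Of these, 210734_x_at was lower in all 3 PARK2 arrays (29 to 31.3) than in the controls (35 to 36.5), with an adjusted p of 0.575. Probe sets with the suffix _x_at may also read other genes, and those with _s_at several transcripts. With the neighbouring genes' deviation subtracted, 209332_s_at was at -0.29 and passed (adjusted p 0.032).

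MXI1, an antagonist that binds MAX and brings in the co-repressor, fell. Probe set 202364_at read 410, 318 and 351.4 in control and 200, 215 and 261 in PARK2 replicates, so every PARK2 array was below every control array. The means were 360 ± 46.5 and 225 ± 31.4 (SD, n = 3), a log2 fold change of -0.64 (SE 0.16, 95% interval -0.98 to -0.30, limma's adjusted p 0.00828). The call held without each array in turn. Of the 40 tested genes around MXI1 on chromosome 10, 13 fell, 1 rose and 26 did not pass, with a median of -0.28, and with their deviation subtracted MXI1 was at -0.33 (adjusted p 0.0649).

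MXD1, the antagonist first described as MAD and known for rising as cells differentiate, fell on 1 of 2 probe sets above the floor. Probe set 226275_at read 101, 92.3 and 86.9 in control and 34.6, 73.4 and 39.2 in PARK2 replicates. All 3 PARK2 arrays were lower, with replicate 2 nearer to the controls than the other two. The log2 fold change was -0.79 (SE 0.21, limma's adjusted p 0.011). Its size depended on the pseudocount, at -0.99 with 1 and -0.49 with 64. Probe set 228846_at read 57, 50.6 and 40.3 in control and 29.7, 38.9 and 39.9 in PARK2 replicates, without overlap but with a smaller change (-0.32, SE 0.19, adjusted p 0.276). The third, 206877_at, was under the floor in every array (0.72 to 3.47). The call of 226275_at was lost without control replicate 1 (-0.75, adjusted p 0.0551), PARK2 replicate 1 (-0.64, 0.0519) or PARK2 replicate 3 (-0.70, 0.0528), with no filter (0.0682) and after the neighbour correction (-0.58, 0.0916). Of the 40 genes around MXD1 8 fell and 0 rose, with a median of -0.21.

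MXD3, the antagonist linked to proliferating cells, rose and was the single network gene to do so. Probe set 221250_s_at read 294, 198 and 160 in control and 335, 330 and 328 in PARK2 replicates. The PARK2 arrays lay close together and above all controls, which were spread widely. The means were 217 ± 68.8 and 331 ± 3.73 (SD, n = 3), a log2 fold change of 0.61 (SE 0.19, 95% interval 0.22 to 1.00, limma's adjusted p 0.025). The call was lost without control replicate 2 (0.57, adjusted p 0.0800), control replicate 3 (0.43, 0.111), PARK2 replicate 1 (0.60, 0.0556) or PARK2 replicate 3 (0.62, 0.0648), with no filter (0.0817) and without the trend (0.0576). Of the 40 genes around it 3 fell and 1 rose (median -0.07), and with their deviation subtracted MXD3 was at 0.69 (adjusted p 0.00633).

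MNT, the broadly expressed antagonist that pairs with MAX or MLX, gave opposite signs on its 2 probe sets. The brighter, 204206_at, read 419, 303 and 348 in control and 186, 247 and 330 in PARK2 replicates, with PARK2 replicate 3 inside the control range (log2 fold change -0.49, SE 0.19, adjusted p 0.0829). In the fit with 1 probe set a gene the same value passed (adjusted p 0.0226), and without PARK2 replicate 3 it was -0.68 (adjusted p 0.027). It was -0.29 without PARK2 replicate 1 (adjusted p 0.335), -0.24 with array weights (0.17), -0.21 after the neighbour correction (0.481) and -0.07 as the mean of both probe sets (0.808). The dimmer, 236749_at, read 16.6, 15.6 and 25 in control and 27.7, 26.2 and 31.2 in PARK2 replicates (0.35, SE 0.20, adjusted p 0.267), higher in all 3 PARK2 arrays. This dimmer probe set passed as higher with array weights (0.45, adjusted p 0.0228) and was at 0.63 after the neighbour correction (0.062). Of the 40 genes around MNT 12 fell and 2 rose, with a median of -0.30.

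MLX, the second hub, did not pass on any of its 5 probe sets above the floor. Probe set 213708_s_at read 819, 757 and 698 in control and 830, 742 and 806 in PARK2 replicates (log2 fold change 0.06, 95% interval -0.22 to 0.35), and 217910_x_at was at 0.05 (-0.26 to 0.36). Probe set 217909_s_at read 455, 429 and 326 in control and 282, 325 and 307 in PARK2 replicates, below all controls, and was at -0.38 (SE 0.16, adjusted p 0.111). It passed with array weights (adjusted p 0.00391), quantile normalization (0.0269), trimmed mean scaling (0.0267) and without control replicate 3 (-0.52, 0.0269). With the neighbouring genes' deviation subtracted, 213708_s_at was at 0.26 and passed as higher (adjusted p 0.0463), and 217909_s_at was at -0.18 (adjusted p 0.268). Of the 40 genes around MLX 10 fell and 0 rose, with a median of -0.15. The other MLX probe sets were at -0.10 (210752_s_at) and -0.30 (1570347_at), and 231401_s_at was under the floor.

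**Figure D3:**
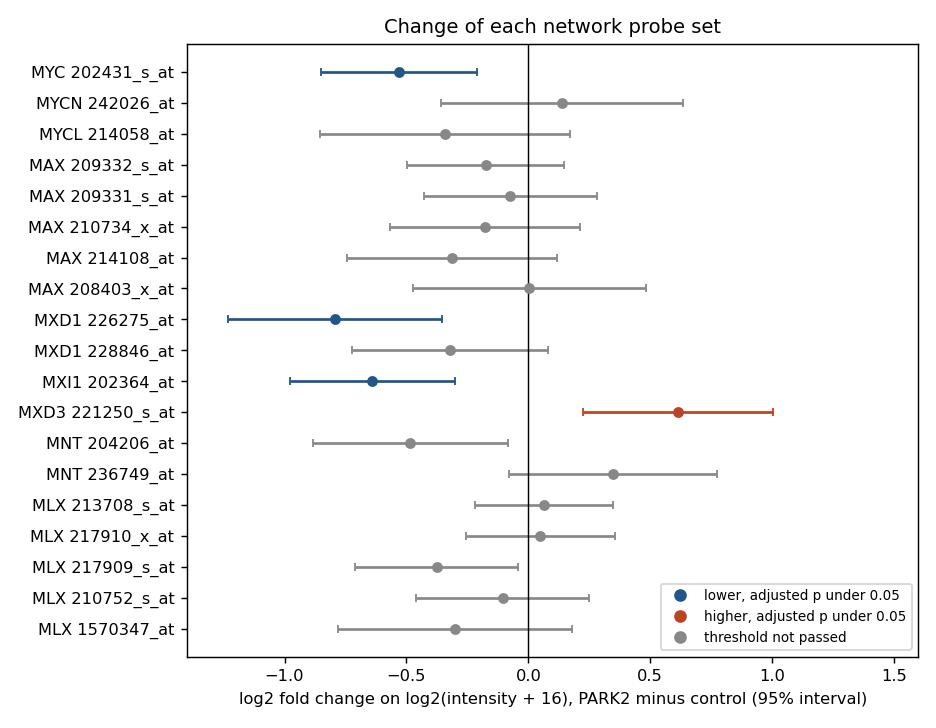
Log2 fold change of each of the 19 network probe sets above the floor (horizontal axis, PARK2 minus control on log2(intensity + 16)), with 95% intervals from limma. Blue fell, orange rose and grey did not pass; the intervals of the 5 MAX probe sets all include 0.

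Over the 6 arrays, the log2 values of MYC had Pearson correlations of 0.912 with MXD1, 0.830 with MXI1, 0.725 with MNT, 0.690 with MAX, 0.247 with MYCL, -0.124 with MYCN, -0.216 with MLX and -0.476 with MXD3, by the brightest probe set of each. The genes most like MYC by this measure were PHLDA3 (0.9963), AGAP2-AS1 (0.9961), UNC5B (0.9945), NAGS (0.9939) and ITM2C (0.9920). These values are a description over 6 arrays in 2 groups, and the points share the difference between the groups.

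Genes that work with the network were read with 1 probe set a gene and adjusted over all 13720 genes. The lists were chosen with earlier results of these data known, so a share above that of all genes is no independent result. Of the genes said below to rise, SAP130 (limma's adjusted p 0.108), ZBTB17 (0.0829) and TRIM32 (0.0702) did not pass in the fit over all probe sets. The median log2 fold change of all 13720 genes was -0.00. Of the partners MGA, MLXIP and MLXIPL, 0 of the 2 above the floor passed. MLXIP, which codes for the glucose sensor MondoA, read 284, 221 and 209 in control and 178, 187 and 163 in PARK2 replicates on its brightest probe set, lower in all 3 PARK2 arrays (-0.39, SE 0.16, limma's adjusted p 0.0641). It passed without control replicate 3 (-0.47, adjusted p 0.02) and under the 3 scalings of the arrays, from -0.41 to -0.37. Its other probe set, 202519_at, went from 221 ± 6.78 to 150 ± 6.46 (SD, n = 3) and fell by 0.51 in the fit over all probe sets (adjusted p 0.0232). MGA, which pairs with MAX, was at -0.17 (adjusted p 0.523), and MLXIPL was under the floor.

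Of 14 co-repressor genes 2 fell and 1 rose, or 21.4% called where 28.8% of all genes were, and 5 rose without control replicate 1. SIN3A, the scaffold that MXD proteins bind, read 337, 244 and 240 in control and 191, 164 and 182 in PARK2 replicates, and fell by 0.56 (SE 0.17, adjusted p 0.00682), and all 3 of its probe sets fell in the fit over all probe sets. Leaving out PARK2 replicate 2 ended the call (-0.50, adjusted p 0.0656), and with the neighbouring genes' deviation subtracted SIN3A was at 0.10 (adjusted p 0.557). The histone-binding subunit gene RBBP7 fell by 0.72 (adjusted p 4.09e-06), and was at -0.23 after the neighbour correction (0.0242). SAP130 rose by 0.42 (adjusted p 0.0447), with control replicate 1 inside the PARK2 range. The call held only where control replicate 1 was the array left out (0.63), and the change was 0.26 (adjusted p 0.235) without control replicate 3. SIN3B was at 0.29 (adjusted p 0.239), and passed without control replicate 1 (0.43, 0.0393).

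Of 16 MYC cofactor genes 2 fell and 2 rose, or 25% called where 28.8% of all genes were, so the share was not above the background. The acetyltransferase genes KAT2A (-0.70, adjusted p 0.000962) and KAT5 (-0.54, 0.0112) fell, and the chromatin remodelling subunit gene ACTL6A (0.46, 0.0051) and ZBTB17 (0.44, 0.0493), which codes for the MYC partner MIZ1, rose. KAT5 lost its call without PARK2 replicate 1 (adjusted p 0.0603) or 2 (0.0521), ACTL6A without control replicate 2 (0.058) or PARK2 replicate 3 (0.07), and ZBTB17 on leaving out each array except control replicate 1 (0.0858 to 0.218). With the neighbouring genes' deviation subtracted, ACTL6A was at 0.02 and KAT5 at -0.18. The KAT5 call was that of its brightest probe set, 214258_x_at. In the limma fit over all probe sets, KAT5 209192_x_at (-0.18, adjusted p 0.557) and 206689_x_at (-0.15, 0.618) did not pass. Of 16 genes of MYC protein turnover 2 rose and 0 fell, or 12.5% higher where 13.3% of all genes were and 12.5% called where 28.8% were. The 2 were TRIM32 (0.41, adjusted p 0.0399) and the kinase gene AURKA (0.39, 0.0149), and 2 genes fell without control replicate 3. The count of rises was 0 without control replicate 2, PARK2 replicate 1 or PARK2 replicate 2, and 3 without control replicate 1. TRIM32 lost its call on leaving out each array except control replicate 1 (0.0822 to 0.2), and AURKA without control replicate 2 (0.152), PARK2 replicate 1 (0.0624) or PARK2 replicate 2 (0.116), and as the mean of its 3 probe sets (0.23, 0.252). FBXW7, the ubiquitin ligase subunit that marks MYC for degradation, was at 0.36 (adjusted p 0.118) and passed without control replicate 1 (0.59, 0.01). SKP2 was at 0.11 (adjusted p 0.667).

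Of 40 genes known as activated by MYC 13 fell and 2 rose, or 32.5% lower where 15.6% of all genes were, and the list's median was -0.28. It was made largely of genes for ribosome assembly and biosynthesis. The 13 were RRS1, WDR43, NOLC1, MYBBP1A, RRP9, NIP7, MPHOSPH10 and FBL, known for ribosome assembly, PRPS2 and NME1 for nucleotide supply, SRM for spermidine synthesis, and PPRC1 and TFB2M. Of these, MYBBP1A is also among the neighbours of MNT counted above, and MPHOSPH10 among those of MXD1. PRPS2 read 2137, 2082 and 2015 in control and 613, 812 and 782 in PARK2 replicates. It fell by 1.49 (SE 0.14, limma's adjusted p 3.55e-14 by gene and 3.42e-07 in the fit over all probe sets). RRS1 read 890, 678 and 668 in control and 406, 362 and 463 in PARK2 replicates and fell by 0.83 (SE 0.15). WDR43 fell by 0.74 and PPRC1 fell by 0.67. After the neighbour correction these were -0.45 (adjusted p 0.00375) and -0.30, where PPRC1 did not pass (0.0685). NCL (0.00), NPM1 (0.03), ODC1 (-0.28, adjusted p 0.0576) and CDK4 (-0.24, adjusted p 0.174) did not pass. CDK4 passed after the neighbour correction (-0.39, adjusted p 0.00167) and with array weights (-0.16, 0.0249), and ODC1 passed without control replicate 1 (0.0277) or 3 (0.0273). The amino acid transporter gene SLC1A5 (0.58) and the transferrin receptor gene TFRC (0.33), named outside the rule after their values were seen, rose. Without 1 array at a time the count that fell ran from 9 (control replicate 2 left out) to 17 (control replicate 3), and that of rises from 0 (PARK2 replicate 3) to 4 (control replicate 1).

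Of 11 genes known as repressed by MYC 5 rose and 2 fell, or 45.5% higher where 13.3% of all genes were, with a median of 0.34. The cell cycle inhibitor gene CDKN1A read 133, 102 and 97.3 in control and 482, 507 and 484 in PARK2 replicates. It rose by 2.01 (SE 0.16, limma's adjusted p 1.05e-16 by gene and 6.44e-08 in the fit over all probe sets). CEBPA (0.93), GAS1 (0.74), CDKN1B (0.71) and CCNG2 (0.50) rose as well, the last of these and CDKN1B named after their values were seen. NDRG1 fell by 1.18, and it is one of the 40 neighbours of MYC described above. THBS1 fell by 0.30 (adjusted p 0.0348). Without 1 array at a time 4 to 6 rose, and 1 fell without control replicate 2 or 3 or PARK2 replicate 1 or 2.

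Of 9 genes known as targets of MondoA or ChREBP with MLX 6 fell and 2 rose, or 66.7% lower and 22.2% higher where 15.6% and 13.3% of all genes were, with a median of -0.45. TXNIP and ARRDC4, a pair of arrestin-fold genes that MondoA and MLX activate together, went in opposite directions. TXNIP read 884, 701 and 713 in control and 2073, 2097 and 2356 in PARK2 replicates. It rose by 1.49 (SE 0.14, limma's adjusted p 2.45e-14 by gene and 2.84e-07 in the fit over all probe sets). In the latter fit all 3 of its probe sets rose. ARRDC4 read 1378, 1201 and 1084 in control and 710, 672 and 838 in PARK2 replicates and fell by 0.71 (SE 0.14, adjusted p 5.97e-05). The lipid synthesis genes SCD (-1.14) and FASN (-0.73) fell, FASN being at -0.46 with array weights and -0.45 after the neighbour correction. HK2, the hexokinase gene, rose by 1.07 on its brightest probe set and was at 0.11 (adjusted p 0.653) as the mean of its 3 probe sets. The other HK2 probe sets, 239410_at (-0.41) and 222305_at (-0.33), went the other way without passing. Both were dim, with control means of 39.3 and 28.3 against 291 for the brightest. With the deviation of neighbouring genes subtracted ARRDC4 was at -0.12 (adjusted p 0.357), and 3 of the 9 fell. Without PARK2 replicate 1 or 2 the count that fell was 4.

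**Figure D4:**
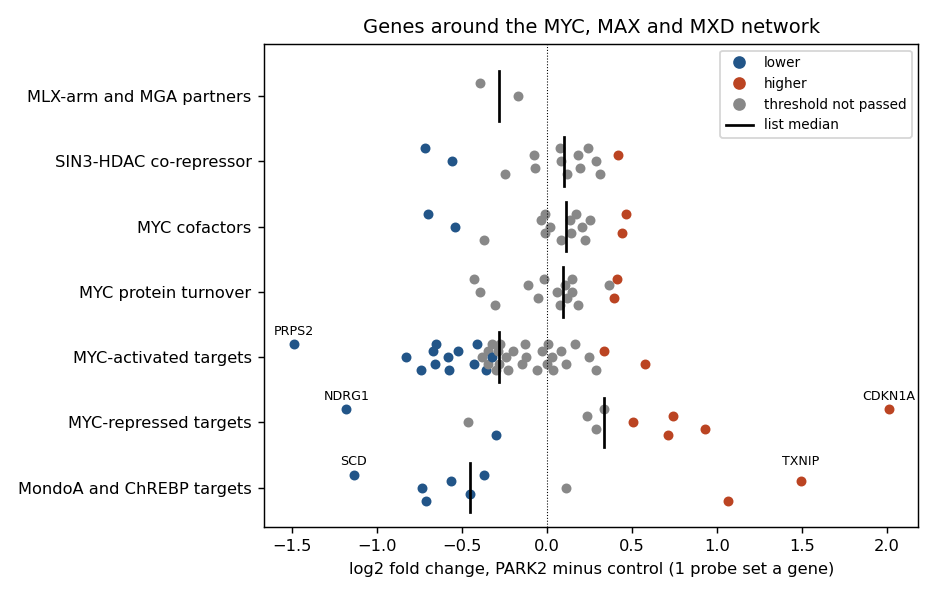
Log2 fold change (PARK2 minus control, 1 probe set a gene) of the tested genes of 7 lists around the network, with the median of each list as a black bar. Blue fell, orange rose and grey did not pass. Genes activated by MYC have a median of -0.28 and those repressed by MYC have a median of 0.34. The lists were chosen with earlier results of these data known.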

How the data were processed

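Biotin-labelled total RNA of 6 samples was hybridised to Affymetrix arrays. Each probe set has 1 deposited intensity per array, on a linear scale. The submitters' processing notes list GCOS and MAS5 without versions. How the arrays were scaled is not given in the sources used here. Detection calls and the transgene's own level were not used.

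Symbols came from GEO's platform annotation, where 41091 of 54613 non-control probe sets (54675 less 62 controls) have 1 symbol. RefSeq's gene table (GRCh38.p14) changed 0 of them and gave gene order and promoters. Array features carry no coordinates here because the builds may differ.

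Intensities were tested as log2(value + 16), a scale that understates the change of dim genes, with no further normalization, in limma (version 3.58.1, R 4.3.3) with an intensity trend and Benjamini-Hochberg adjustment at 0.05. Probe sets under the 40th percentile of mean log2 value were left out, which left 26603, or 13720 genes by the brightest probe set of each. The spread limma borrowed from other features had 13.7 prior degrees of freedom over probe sets and 60.8 by gene, against 4 from the arrays. An adjusted p by gene can therefore be much smaller for the same values, and rests mostly on that borrowed spread. The number of arrays limits the precision. The limma step was tested on simulated arrays of 26603 probe sets made for PARK2 against control. There 67 probe sets changed 1.5-fold, 67 changed 2-fold and 66 changed 4-fold. Of these, 14.9%, 80.6% and 100% were recovered, and 1 unchanged probe set passed. In the data 20.4% of probe sets were called, a larger share than was changed there, which makes the adjusted threshold easier to pass. The recovered shares therefore do not carry over to the data.

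No arrays were duplicates, since log2 values correlated at 0.983 to 0.99 inside a group and 0.954 to 0.962 across groups. The neighbour correction subtracted on each array the median deviation of the 20 tested genes on either side. Members and lists were chosen with earlier results of these data known. Named list genes were the up to 4 largest changes past the threshold per list (the 2 smallest p where none passed) and MGA, MLXIP, MLXIPL, SIN3A, SIN3B, FBXW7, SKP2, NCL, NPM1, ODC1, CDK4, CDKN1A, TXNIP and ARRDC4. Alternatives covered the filter, pseudocount, scaling, variance model, weights, replicate block, probe set choice, threshold, neighbours and the leaving out of each array.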

Additional observations from a re-analysis of the deposited data

How the results depend on the processing

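The 4 network probe sets past the threshold kept their direction under each alternative that gave a value (82 values), and lost their call in 20 of these. Some alternatives (the filter, the intensity trend, the replicate block and the threshold) leave the log2 fold change itself unchanged. The direction could not turn there, so the 82 values are not separate checks of it. Network probe sets falling numbered 1 at a threshold of 0.01, which was MXI1, against 3. After the neighbour correction MYC, MXI1 and MXD1 all lost their call, and the 1 that fell was MAX 209332_s_at, not called before. Without 1 array at a time the count of falls ran from 1 (without PARK2 replicate 1) to 4. Network probe sets rising numbered 0 with no filter, with no intensity trend and at a threshold of 0.01, against 1. The count was 2 with array weights and after the neighbour correction, and 0 to 1 without 1 array at a time. Without probe sets marked _x_at and _s_at it was 0, but there the single MXD3 probe set was itself left out. Over all probe sets, 2422 rose and 2994 fell. The rise count was 3705 under quantile normalization, 3735 under trimmed mean scaling, 5905 with array weights, 1433 at a threshold of 0.01 and 1461 as the mean of probe sets a gene, and 1498 (without PARK2 replicate 3) to 3659 (without control replicate 1) without 1 array. The fall count was 5352 with array weights, 1733 at 0.01, 1884 as the mean of probe sets and 1830 without _x_at and _s_at probe sets, and 2144 to 3170 without 1 array. Fewer features tested is part of the last 2 alternatives; otherwise the cause was not tested. The estimate of array weights stopped before it converged. Of genes in the 7 lists 14 rose and 25 fell. The rise count was 9 with no trend, at 0.01 and without _x_at and _s_at probe sets, 31 with array weights and 7 to 23 without 1 array. The fall count was 40 with array weights, 15 without _x_at and _s_at probe sets and 17 to 32 without 1 array. Of genes activated by MYC 8 fell with no filter and 21 with array weights, against 13. Network probe sets above the floor in each setting whose groups did not overlap numbered 8 to 12 without 1 array, against 8, and 10739 to 13303 of all, against 9339. Groups separate more easily with 2 arrays in a group than with 3, so the higher counts there are no added result. The signs of NCL (-0.32, adjusted p 0.0049) and SIN3A (0.10, adjusted p 0.557) turned after the neighbour correction, and the cause was not tested. Rises made up 44.7% of all calls, 58.8% without control replicate 1 and 35.6% without control replicate 3.

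The titles number the replicates without saying that a number is shared. Deviations of same-numbered arrays from their group means correlated at 0.168, 0.0453 and 0.0649 across genes, so the numbers were not taken as pairs. With the replicate number as a block 1 network probe set rose and 3 fell, 2569 and 3202 of all probe sets, and 11 and 24 of the list genes, and the 4 network calls held. Probe sets near the floor, among them those of MYCN and MYCL, limit what can be said of dim genes.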
